A study of Mus musculus with 6 samples.

Results

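The genes described here are Cck, the peptide hormone cholecystokinin, and its receptors Cckar and Cckbr, 3 of the 24539 genes in a deposited count table from mouse fat. They were chosen by name from the ligand and receptor family of Cck, and Cck itself was picked from its difference between the groups in these same samples. Its levels are therefore given as a description, without a test. The tissue was eWAT, epididymal white fat from beside the male reproductive tract, taken from 3 mice labelled Jmjd8-KO and 3 labelled WT. All 6 were C57BL/6, untreated and kept on a high-fat diet (HFD). The knockout allele, whether it acts in all tissues, the age of the mice and the length of the diet are not stated in the sources used here. The study compared gene expression in this depot between the genotypes.

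Cholecystokinin is made as a longer precursor, which proprotein convertases and carboxypeptidases cut, tyrosylprotein sulfotransferases sulfate and the amidating enzyme Pam finishes at its end. Endocrine cells of the small intestine release it after a meal, when it contracts the gall bladder, stimulates the pancreas and promotes satiety, and many neurons of the brain use it as a transmitter. It acts on a pair of G protein-coupled receptors that signal mainly through Gq, phospholipase C and calcium. Cckar binds the sulfated peptide and prevails in the gut and pancreas, while Cckbr, abundant in the brain and stomach, also binds the related hormone gastrin.

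Total counts were 17598696 to 20598473 per mouse. Library-scaled counts (CPM) below are scaled by the same normalization as the test, and RPKM (read counts scaled for gene length and library size) are the deposited values. Jmjd8 fell in the libraries labelled knockout, with 748, 1147 and 728 counts there and 2277, 2284 and 2209 in the WT libraries, here and below in replicate order (log2 ratio of Jmjd8-KO over WT -1.28, SE 0.144, adjusted p = 0.0193 by edgeR's quasi-likelihood test). That call was lost on leaving out any single mouse other than Jmjd8-KO replicate 2. The defining adipocyte markers Adipoq, Lep and Plin1 were abundant in every mouse, and the 12 adipocyte markers listed summed to between 21534 and 28942 CPM. A library stood apart in the WT group: replicate 1 held transcripts of brain, described below with the values of Cck they touch. Of 14322 genes tested in the whole table, 304 passed at an adjusted p under 0.05, or 2.12%, with 0.789% higher and 1.33% lower in Jmjd8-KO. The split was 113 higher and 191 lower, 84 and 288 with counts scaled by library size alone, and 503 and 536 with DESeq2. An unadjusted p under 0.05 by edgeR was reached by 2735 of the 14322 genes. Leaving out single mice moved the 304 to between 0 (WT replicate 3 left out) and 1351 (Jmjd8-KO replicate 2 left out).

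Cck lies on the minus strand of chromosome 9 from 121489824 to 121495694 (GRCm38, the assembly of mm10), where GENCODE annotates 6 transcripts and no overlapping gene. Its promoter is shown because Cck is the member whose level separates the groups, and because the sites known to drive it stand close to the gene's start. The sequence, from RefSeq on GRCm38.p6, is chr9:121495665-121495944 read on the minus strand, from 250 bases before the annotated start to 30 bases after it. Capitals mark the matches to 3 of the 6 motifs searched.
Cck promoter: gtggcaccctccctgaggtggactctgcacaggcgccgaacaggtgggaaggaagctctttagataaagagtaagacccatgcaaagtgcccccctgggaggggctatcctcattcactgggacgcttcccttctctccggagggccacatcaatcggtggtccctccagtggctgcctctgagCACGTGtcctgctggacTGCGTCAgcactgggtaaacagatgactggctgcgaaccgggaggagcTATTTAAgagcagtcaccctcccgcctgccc
The first match is CACGTG, the core of an E-box, which begins at position -66, and the next is TGCGTCA, at -49, a variant of the cyclic AMP response element (CRE) described in this promoter as a site for CREB and AP-1 proteins. The last, beginning at -1, is TATTTAA, which resembles a TATA box and was searched on the coding strand only. In windows of the same length, CACGTG occurred in 6.79% of 32851 promoters, TGCGTCA in 2.04% and TATTTAA in 2.38%. The consensus CRE TGACGTCA, the AP-1 motif TGANTCA and the GC box GGGCGG are not in this window, and 1.74%, 7.46% and 34.7% of promoters hold them. All but TATTTAA were searched on both strands, and no match overlaps another. These matches describe the sequence and were not tested for occupancy. Their positions count from the annotated start, and where transcription of Cck starts in this fat was not tested.

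Cck was high in all WT mice and close to absent in all Jmjd8-KO mice. It had 601, 176 and 209 counts in WT replicates 1, 2 and 3, against 9, 9 and 5 counts in the Jmjd8-KO mice. In CPM these were 29.7, 8.92 and 10.5 in WT and 0.474, 0.453 and 0.291 in Jmjd8-KO. The groups did not overlap, the lowest WT value being 18.8 times the highest Jmjd8-KO value. Groups also failed to overlap in 29.5% of all genes tested, and in 15.5% with Jmjd8-KO the lower. The mean was 16.4 ± 11.5 CPM in WT and 0.406 ± 0.1 CPM in Jmjd8-KO (SD, n = 3 each), so that the Jmjd8-KO mean was 2.48% of the WT mean. The log2 ratio was -5.30, among 14322 genes whose median was -0.01. Cck passed the filter on low counts only through the WT mice, since its Jmjd8-KO counts were under the minimum of 10. In bulk tissue, fewer cells that make Cck and less Cck RNA per cell cannot be told apart.

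Counting error was small beside this difference. The 95% exact binomial interval was 7.65 to 10.3 CPM in WT replicate 2 and 9.15 to 12.1 CPM in WT replicate 3, so these mice overlapped. The WT replicate 1 interval, 27.3 to 32.1 CPM, lay above both. The Jmjd8-KO intervals ran from 0.0943 to 0.901 CPM over the 3 mice and overlapped each other. These intervals cover counting error only. Per length, Cck stood at 9.75 and 11.7 RPKM in WT replicates 2 and 3, above 76.7% and 79.2% of listed genes, and at 33.3 RPKM in WT replicate 1, above 92.2%. It stood at 0.502, 0.477 and 0.309 RPKM in the Jmjd8-KO mice, above 46.1%, 46.2% and 43.6% of listed genes. In WT fat other than replicate 1 it was thus a gene of moderate level, and in Jmjd8-KO fat it was among the barely detected.

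**Figure D1:**
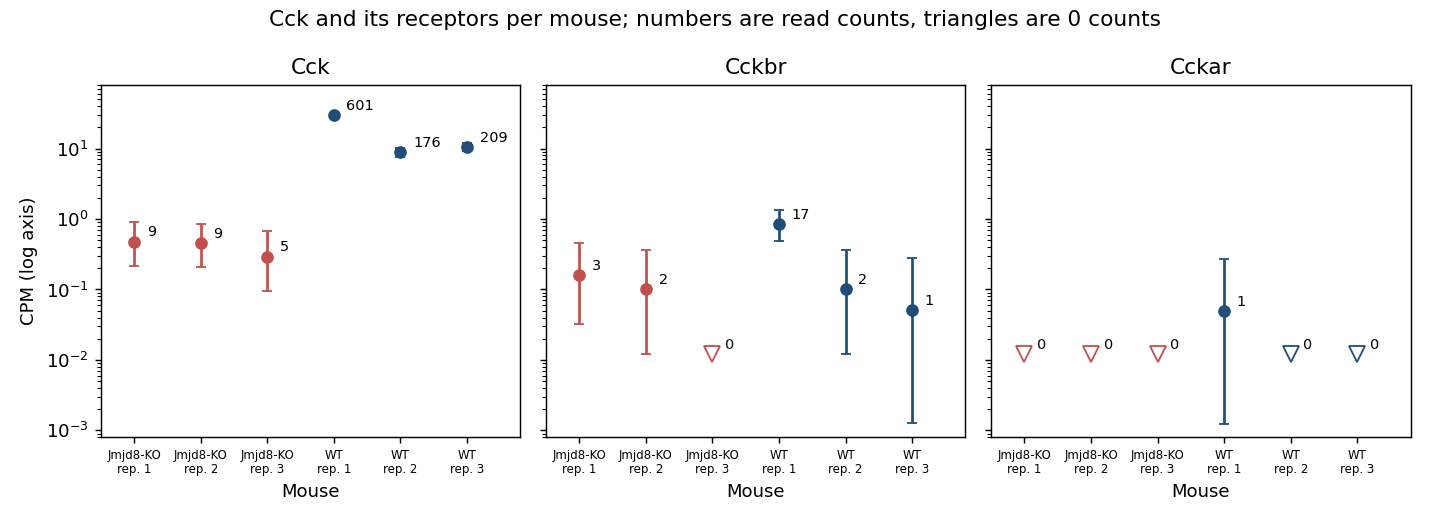
CPM of Cck, Cckbr and Cckar in each mouse on a log axis, Jmjd8-KO in red and WT in blue, with 95% exact binomial intervals as bars and the read count beside each point. Open triangles at an arbitrary height stand for 0 counts; Cck had 5 to 9 counts in Jmjd8-KO and 176 to 601 in WT, while Cckbr had more than 3 counts in WT replicate 1 alone and Cckar 1 count in all.

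The receptors were barely detected in any mouse. Cckbr, read on the plus strand of chromosome 7 (105425731 to 105470898), had 3, 2 and 0 counts in Jmjd8-KO and 17, 2 and 1 in WT. Leaving aside WT replicate 1, its highest level was 0.158 CPM, in Jmjd8-KO replicate 1, and the groups overlapped. WT replicate 1 stood apart from the other WT mice at 0.839 CPM (95% exact binomial interval 0.489 to 1.34). Cckar, on the minus strand of chromosome 5 from 53697776 to 53707705, had 1 count, in WT replicate 1, and 0 in the other mice. A count of 0 allows up to 3 counts, or 0.151 to 0.174 CPM in those 5 libraries, while the upper end of the 95% exact binomial interval used for the other values is 0.186 to 0.214 CPM. Of the 3 members, 1, Cck, passed the filter on low counts, and no ratio is given for the receptors. Differences in either receptor were not detectable at this depth, apart from the higher Cckbr count in WT replicate 1.

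Markers of neurons set WT replicate 1 apart. With that mouse set aside most overlapped between the groups, while some were slightly higher in WT and 1 was lower. All 17 listed neuron markers were highest in WT replicate 1, and 16 of them were there over 3 times the highest value elsewhere. Their summed level was 1277 CPM in WT replicate 1, 104.3 and 109.8 CPM in WT replicates 2 and 3, and 106.9, 150.02 and 113.1 CPM in Jmjd8-KO. Most of that sum outside WT replicate 1 came from Syp, synaptophysin. Without Syp the other 16 markers summed to 1123 CPM in WT replicate 1, 35.04 and 34.97 CPM in WT replicates 2 and 3, and 28.6 to 29.0 CPM in Jmjd8-KO, so both remaining WT mice lay above every Jmjd8-KO mouse. With WT replicate 1 set aside, 5 of the 17 (Camk2a, Nefl, Map2, Eno2 and Celf4) were higher in both WT mice than in any Jmjd8-KO mouse. Syp was lower and 11 overlapped. The share of all genes that separate this way without WT replicate 1 was not computed, so these counts have no background. Nefl had only 8 and 8 counts in those WT mice and 5, 5 and 6 in Jmjd8-KO. The WT mean of the 5 higher markers was then 1.20 to 1.72 times the Jmjd8-KO mean. Camk2a, a kinase of excitatory neurons and the one with the widest gap, had 122 and 154 counts in those WT mice and 88, 59 and 78 in Jmjd8-KO. Of 11 markers of glia of the brain, 10 were highest in the same mouse, and they summed to 792 CPM in WT replicate 1, 148 and 153 CPM in the other WT mice and 172 to 183 CPM in Jmjd8-KO. Outside it, 2 of the 11 (Mbp and Mag) were higher in WT, 2 (Slc1a3 and Olig1) lower and 7 overlapped, again with no share over all genes. Snap25, which drives the fusion of synaptic vesicles, had 2511 counts in WT replicate 1, 20 and 11 in WT replicates 2 and 3 and 8, 14 and 13 in Jmjd8-KO, so the groups overlapped in it once WT replicate 1 was set aside. Slc17a7, the glutamate transporter of cortical neurons, had 17 and 12 counts in those WT mice and 11, 19 and 18 in Jmjd8-KO.

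**Figure D2:**
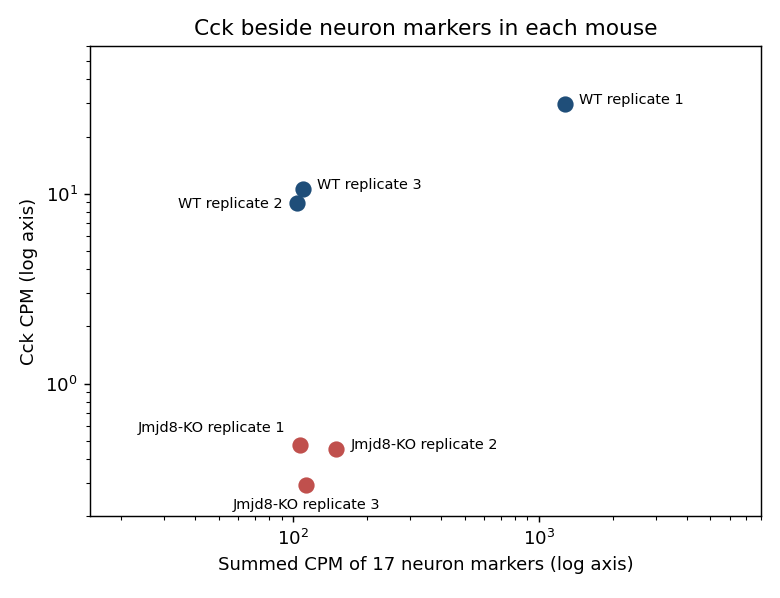
Cck CPM against the summed CPM of 17 neuron markers in each mouse, both on log axes, Jmjd8-KO in red and WT in blue. WT replicate 1 lies to the right at 1277 CPM of neuron markers, while WT replicates 2 and 3 share the range of the Jmjd8-KO mice on that axis (104.3 to 150.02 CPM), where Syp makes up most of the sum, and lie far above them in Cck.

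Counts of Cck were also set beside those of a neuron marker in each mouse. For each count of Snap25 there were 8.8 and 19 counts of Cck in WT replicates 2 and 3 and 0.239 in WT replicate 1. In Jmjd8-KO there were 1.125, 0.643 and 0.385, from only 5 to 9 counts of Cck and 8 to 14 of Snap25. The excess of Cck in WT replicate 1 over the other WT mice was 3.05-fold, and that library's neuron markers moved with it; their part in that excess was not tested. Without WT replicate 1 the difference between the groups stayed large. The WT mean was then 9.73 ± 1.14 CPM (SD, n = 2), 24.0 times the Jmjd8-KO mean, with a log2 ratio of -4.56. The part of the neuron markers that were higher in these WT mice was not tested.

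Other sources of Cck were looked for in the same way. Of 7 markers of sympathetic neurons, which supply fat with nerves, 3 were at 0 everywhere, among them Th and Dbh, the enzymes of noradrenaline synthesis, and the sum lay between 1.01 and 2.12 CPM in all 6 mice. Of 6 markers of intestinal endocrine cells, none was tested, Pyy was at 0 in every mouse, and outside WT replicate 1 the sum was at most 0.755 CPM. Of 10 markers of the epididymis, 5 were at 0 everywhere, including Adam7 and Lcn5, and the sum was 0.907 to 1.53 CPM in WT and 0.101 to 0.349 CPM in Jmjd8-KO. Crisp1, a sperm-binding protein, had 12, 16 and 10 counts in WT and 0 in each Jmjd8-KO mouse. It is given as counts alone, since it passed the filter on low counts only through the WT mice. The part of these markers in the difference in Cck was not tested.

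Markers of the resident cells of fat also moved between the groups. Of 12 adipocyte markers 3 rose and 0 fell, of 6 mesothelial markers 2 rose and 0 fell, of 8 macrophage markers 4 fell and 0 rose, and of 7 T cell markers 2 fell and 0 rose, against 0.789% and 1.33% of all genes. All of these calls were lost, with 0 in each list, on leaving out any single mouse other than Jmjd8-KO replicate 2. The T cell calls were Il7r (log2 ratio -0.998, adjusted p = 0.0348 by edgeR) and Themis. Themis had 9, 4 and 8 counts in Jmjd8-KO, under the minimum count of the filter on low counts. It thus passed that filter only through the WT mice, where it was high, and no conclusion is drawn from its call. Macrophage markers summed to 1890 to 2334 CPM in the Jmjd8-KO mice, against 2793 to 2919 CPM in WT, and mesothelial markers to 296 to 326 CPM in the Jmjd8-KO mice, against 149 to 205 CPM in WT. Markers of progenitors (1450 to 2001 CPM in Jmjd8-KO, 1716 to 1805 CPM in WT) and of endothelium (707 to 763 and 724 to 762 CPM) overlapped between the groups. T cell markers summed to 24.8 to 33.9 CPM in Jmjd8-KO and 55.7 to 66.0 CPM in WT. Their log2 ratios ran from -3.15 (Themis) to -0.01. The part of all these markers in the difference in Cck was not tested.

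The genes nearest to Cck in pattern were sought over the 6 libraries by the Euclidean distance between centred log2 CPM, which weighs size as well as shape. Among 13407 genes whose mean reached 1 CPM in either group, the nearest was Gpr50, a melatonin receptor relative with no known ligand, at a distance of 1.48. Gpr50 had 85.6, 61.05 and 82.4 CPM in WT and 3.74, 1.96 and 3.60 CPM in Jmjd8-KO. Rtn4r, the Nogo receptor of neurons, followed at 2.61, Themis, a protein of T cell development, at 2.85, Nptx1, a pentraxin of synapses, at 2.93 and Akr1b7, an aldo-keto reductase, at 2.98. Rtn4r and Nptx1 shared the peak in WT replicate 1, Rtn4r with 140, 21 and 26 counts in WT against 6, 4 and 3 in Jmjd8-KO, and Nptx1 with 888, 83 and 96 against 29, 19 and 26. Akr1b7 was lowest in that WT mouse, with 13, 28 and 27 counts in WT and 1, 1 and 0 in Jmjd8-KO. Themis had 72, 51 and 81 counts in WT and 9, 4 and 8 in Jmjd8-KO. All 5 lay higher in every WT mouse than in any Jmjd8-KO mouse, which the measure of likeness favours, so they are given without a test.

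Without WT replicate 1 the order changed. Akr1b7 was then nearest at 0.928, Gpr50 next at 1.003 and Themis at 1.88, so 3 of the 5 stayed among the nearest, while Rtn4r and Nptx1 dropped to ranks 7 and 13. Sptlc3, a subunit of serine palmitoyltransferase, at 2.09, and Hpx, the haem carrier hemopexin, at 2.34, took their places. By the correlation of shape alone, without regard to size, the nearest over 6 libraries were Cd300a, an inhibitory receptor of myeloid cells, the adhesion protein Cadm1, the macrophage membrane protein Ms4a7, Inip, a subunit of a single-strand DNA binding complex, and Pycard, the inflammasome adaptor ASC. Their distances from Cck were 4.34 to 5.84. Ms4a7, for example, had 45.96, 39.1 and 40.2 CPM in WT and 20.4, 19.01 and 18.01 CPM in Jmjd8-KO, a far smaller step than that of Cck. Of the nearest genes by distance, Gpr50, Rtn4r, Themis and Akr1b7 have promoters in the RefSeq table, and neither CACGTG nor TGCGTCA is in those windows.

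**Figure D3:**
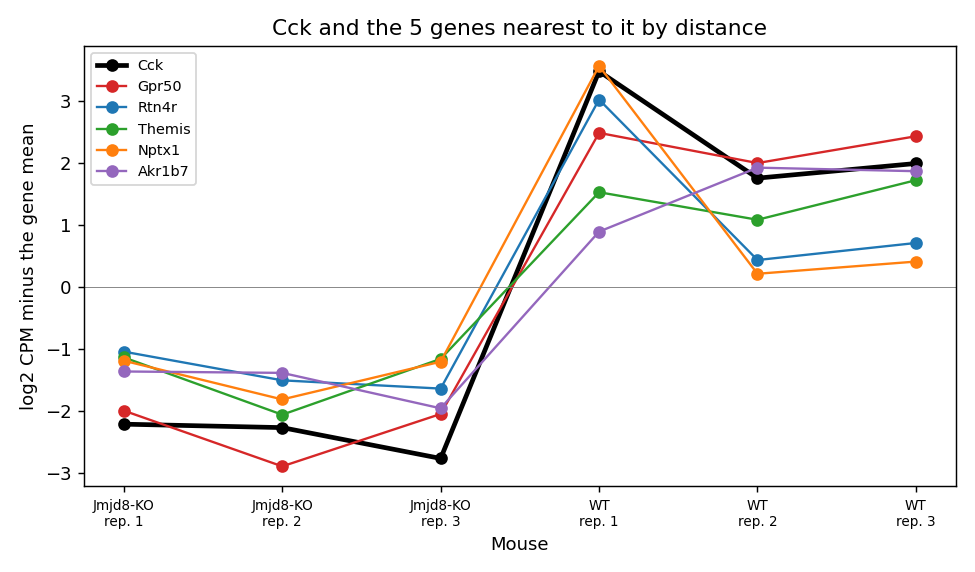
Log2 CPM of Cck (thick black line) and the 5 genes nearest to it by distance, each minus its own mean over the 6 mice. All 6 genes lie below their mean in the Jmjd8-KO mice and above it in the WT mice; Cck, Rtn4r and Nptx1 peak in WT replicate 1 and Akr1b7 is lowest there among WT mice.

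The genes beside Cck on chromosome 9 did not share its difference where they could be tested. Of its 8 nearest listed neighbours, 4 on each side, 5 were tested and 0 passed with edgeR, against 2.12% of all genes. An unadjusted p under 0.05 was reached by 0, against 2735 of 14322 genes. DESeq2 called 0, against 1039 of 14322 genes. Trak1, a mitochondrial transport adaptor 14906 bases away, had 152.3 CPM in the Jmjd8-KO mice, against 146.2 CPM in WT (log2 ratio 0.06, SE 0.0646), and Ctnnb1, beta-catenin, 421.8 and 416.6 CPM (0.02, SE 0.0680). Vipr1, a receptor for vasoactive intestinal peptide, had a log2 ratio of 0.64 (SE 0.303, adjusted p = 0.299). With WT replicate 1 and Jmjd8-KO replicate 2 both left out, Vipr1 passed (edgeR, log2 ratio 0.99, adjusted p = 0.0357), as did 2833 of 14287 genes. Lyzl4, a lysozyme-like gene 82149 bases away, was too low to test, with 9, 9 and 8 counts in WT and 1, 3 and 2 in Jmjd8-KO. Its groups did not overlap. With no filter on low counts its log2 ratio was -1.96 (edgeR, unadjusted p = 0.00797, adjusted p = 0.167). In that fit 3027 of 19120 genes had an unadjusted p under 0.05.

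Near the receptors, the single neighbours that passed were lower in Jmjd8-KO, as were 1.33% of all genes by the same test. Beside Cckbr, 1 of 5 tested neighbours passed: Hpx, 120715 bases away. It had 82, 54 and 78 counts in WT and 9, 13 and 12 in Jmjd8-KO (log2 ratio -2.54, SE 0.270). Its adjusted p by edgeR was 0.0181, and 0.0504 without WT replicate 1. Jmjd8-KO replicate 1, at 9 counts, lay under the minimum count of 10 in the filter on low counts. Hpx thus passed that filter with the help of the WT mice, where it was high, and no conclusion is drawn from its call. Beside Cckar, 1 of 5 passed: Sel1l3, 483849 bases away, with 198, 145 and 154 counts in WT and 59, 53 and 67 in Jmjd8-KO (-1.36, SE 0.203, adjusted p = 0.0311). At an unadjusted p under 0.05 by edgeR there were 2 genes beside each receptor, against 2735 of all 14322 genes. Of the 2 beside Cckbr, Smpd1 rose (log2 ratio 0.17). DESeq2 called 1 beside Cckbr and 2 beside Cckar, against 1039 of 14322 genes. The other beside Cckar was Stim2, a calcium sensor of the endoplasmic reticulum (log2 ratio -0.38, adjusted p = 0.0945 by edgeR and 0.0162 by DESeq2). The calls of Hpx and Sel1l3 were lost on leaving out any single mouse other than Jmjd8-KO replicate 2, with adjusted p up to 0.133 for Hpx and 0.150 for Sel1l3.

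Most enzymes that mature the Cck precursor were expressed in this fat at levels that did not pass the test between the groups. Of 12 listed genes 10 were tested, 1 rose, 0 fell and 9 did not pass, against 0.789% of all genes higher and 1.33% lower. The median log2 ratio of the list was 0.03. The riser was Pcsk6, the proprotein convertase PACE4, with 121.9, 135.8 and 128.2 CPM in the Jmjd8-KO mice, against 70.95, 87.97 and 86.3 CPM in WT (log2 ratio 0.65, SE 0.102, adjusted p = 0.0329). Every Jmjd8-KO mouse was above every WT mouse. The call was lost on leaving out any single mouse other than Jmjd8-KO replicate 2 (adjusted p from 0.0905 without WT replicate 1 to 0.159). The highest levels per length in this list were those of Ctsl, cathepsin L, which takes part in processing the Cck precursor in neurons, at a mean of 280.4 RPKM, and Pam, at 112.1 RPKM. Their log2 ratios were -0.18 (SE 0.124, adjusted p = 0.464) and -0.07 (SE 0.0711, adjusted p = 0.59).

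The convertases of classical endocrine cells were near the limit of detection outside WT replicate 1. Pcsk1, which cuts many prohormones, had 0, 0 and 2 counts in Jmjd8-KO and 15, 1 and 1 in WT, and Pcsk2, its neuroendocrine partner, had 1, 3 and 0 against 371, 3 and 1. The WT mice other than replicate 1 thus held 176 and 209 counts of Cck beside at most 3 counts of either enzyme. Cpe, the carboxypeptidase that trims prohormones, was present in all mice, at 837, 1118 and 672 counts in Jmjd8-KO and 4188, 769 and 754 in WT, with the peak in WT replicate 1 and an overlap of the groups. Tyrosylprotein sulfotransferases were present too, Tpst1 at a mean of 19.6 RPKM and Tpst2 at 33.7 RPKM.

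Proteins of the regulated secretory granule were highest in WT replicate 1. All 12 listed were highest in that mouse, 10 of them over 3-fold, and the list summed to 261.2 CPM there, 19.4 and 22.3 CPM in the other WT mice and 20.7 to 26.5 CPM in Jmjd8-KO. Of 6 tested 0 passed with edgeR, against 2.12% of all genes, and the median log2 ratio of the list was -1.07. At an unadjusted p under 0.05 there was 1, against 2735 of 14322 genes. DESeq2 called 0, against 1039 of 14322 genes. Ptprn, a granule membrane protein, had 649, 9 and 29 counts in WT and 9, 13 and 12 in Jmjd8-KO, and Scg3, a granin-binding protein, 544, 102 and 138 against 113, 104 and 101. In both the groups overlapped. Outside WT replicate 1, 3 of the 12 (Chga, Cadps and Cadps2) were lower in both WT mice than in any Jmjd8-KO mouse. A further 1 (Pcsk1n) was higher and 8 overlapped. The share of all genes that separate this way was not computed. Chga, chromogranin A, had 19 and 7 counts in WT replicates 2 and 3 and 50, 65 and 53 in Jmjd8-KO. Its log2 ratio was -0.06 over all mice and 2.17 without WT replicate 1 (adjusted p = 0.0937). With Jmjd8-KO replicate 2 left out as well, 2 granule genes passed, both higher in Jmjd8-KO: Chga (adjusted p = 7.13e-07) and Cadps, a factor of vesicle priming (adjusted p = 0.0310). In that fit 2833 of 14287 genes passed, so calls were common in the whole table.

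The Gq pathway through which both receptors signal was expressed and mostly did not pass. Of 19 listed genes, 18 were found by symbol and 17 tested. Of these 1 fell, 0 rose and 16 failed the threshold, against 1.33% of all genes lower and 0.789% higher. By edgeR, 5 had an unadjusted p under 0.05, against 2735 of 14322 genes. DESeq2 called 3, all lower in Jmjd8-KO, against 1039 of 14322 genes. The median log2 ratio of the list was -0.03, and the lowest was that of Prkcb, at -1.15 (SE 0.355, adjusted p = 0.15 by edgeR). Prkcb had 642, 458 and 574 counts in Jmjd8-KO and 2168, 955 and 873 in WT, with the peak in WT replicate 1. The faller was Rgs2, which switches off Gq, with 23.6, 25.8 and 25.1 CPM in the Jmjd8-KO mice, against 37.2, 33.8 and 33.9 CPM in WT (log2 ratio -0.49, SE 0.0855, adjusted p = 0.0417). The groups did not overlap, and the call was lost on leaving out any single mouse other than Jmjd8-KO replicate 2 (adjusted p 0.132 to 0.187). The most abundant per length were Gna11, a Gq family subunit, at a mean of 37.0 RPKM, and Prkcd, protein kinase C delta, at 31.8 RPKM. Prkcd had 83.5 ± 11.3 CPM in the Jmjd8-KO mice, against 112.2 ± 1.13 CPM in WT (SD, n = 3 each; log2 ratio -0.43, adjusted p = 0.0957 by edgeR), and Gna11 had a log2 ratio of 0.12 (adjusted p = 0.463).

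Of 5 membrane and cytosolic peptidases that degrade peptides such as cholecystokinin, all were tested and 0 passed with edgeR, against 2.12% of all genes. At an unadjusted p under 0.05 there was 1, against 2735 of 14322 genes. Of these 5 peptidases DESeq2 called 1, Anpep, against 1039 of 14322 genes. Anpep, aminopeptidase N, at a mean of 41.2 RPKM the highest of them per length, had 125.4, 103.5 and 140.4 CPM in the Jmjd8-KO mice, against 177.6, 165.1 and 199.4 CPM in WT (log2 ratio -0.55, SE 0.129, adjusted p = 0.0822). Enpep, aminopeptidase A, which removes acidic residues from the start of peptides, was next at 36.2 RPKM (0.13, SE 0.0961, adjusted p = 0.49). Ace, the angiotensin-converting enzyme, had 0.26 (adjusted p = 0.31).

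**Figure D4:**
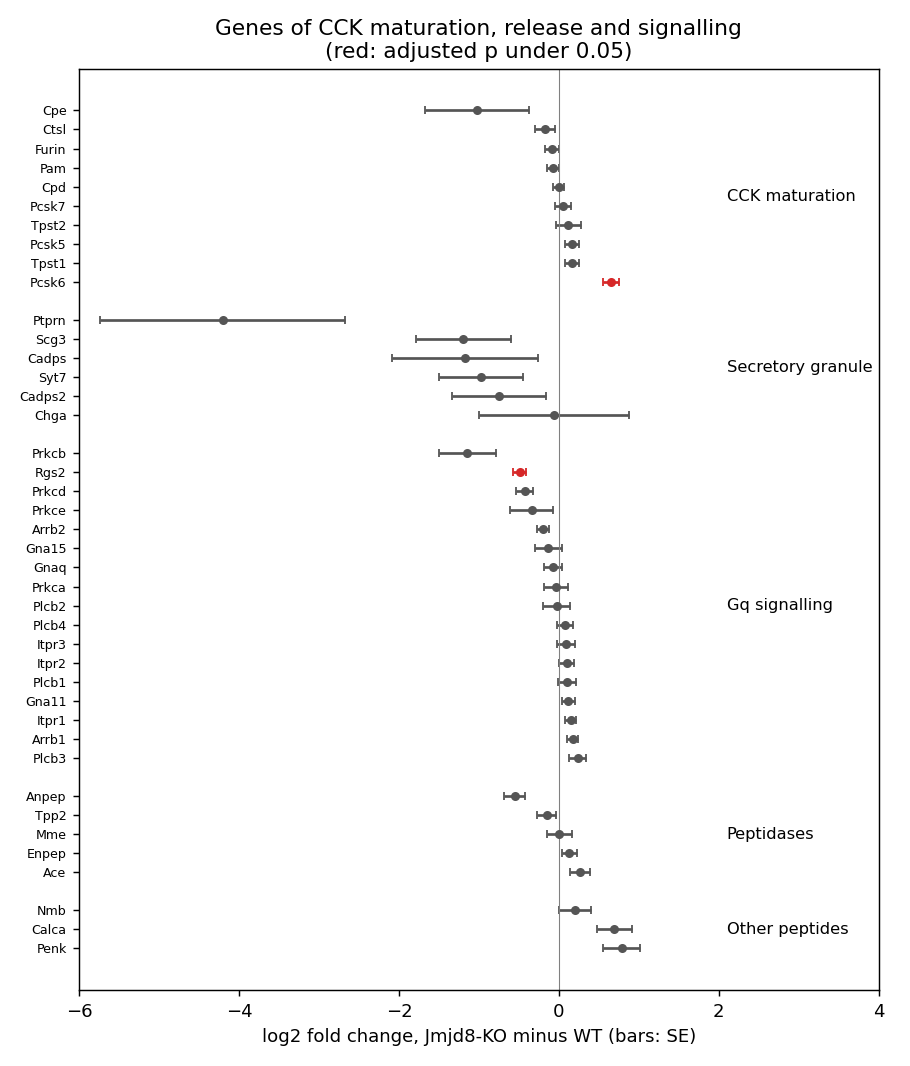
Log2 ratios, Jmjd8-KO minus WT, with SE as bars, for the tested genes of 5 lists around Cck. Pcsk6 at 0.65 and Rgs2 at -0.49, in red, are the 2 that passed at an adjusted p under 0.05; secretory granule genes have the widest bars.

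Among peptide hormone genes, Cck was prominent in WT fat and most others were silent. Of 32 other peptide genes listed, 7 were at 0 in all mice, among them Gast, the gastrin gene, Gcg, glucagon, and Pyy, and 27 had at most 10 counts in every mouse outside WT replicate 1. In WT replicates 2 and 3, Cck ranked 2 per length among the 33 genes, after Penk, the enkephalin precursor, and ahead of Nmb, neuromedin B. In WT replicate 1 it ranked 1. In Jmjd8-KO replicates 1, 2 and 3 it ranked 4, 5 and 9, at levels where neighbours differ by a few reads.

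The other peptide genes that were expressed did not share the fall. Of 3 tested 0 passed with edgeR, against 2.12% of all genes. An unadjusted p under 0.05 was reached by 2, against 2735 of 14322 genes. DESeq2 called 1, Penk, against 1039 of 14322 genes. Penk had 47.8, 82.98 and 44.7 CPM in the Jmjd8-KO mice, against 33.2, 34.2 and 34.4 CPM in WT (log2 ratio 0.79, SE 0.23, adjusted p = 0.136). The groups did not overlap, with Jmjd8-KO the higher and its replicate 2 the highest of all. Nmb had 3.53, 4.02 and 3.20 CPM against 3.46, 2.54 and 3.38 CPM (0.20, SE 0.201, adjusted p = 0.612), an overlap. Calca, the gene of calcitonin and its related peptide, had 36, 49 and 34 counts in Jmjd8-KO and 29, 25 and 24 in WT (0.70, adjusted p = 0.149).

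Some peptide genes shared with Cck only the peak in WT replicate 1. Sst, somatostatin, had 209 counts there, 2 and 1 in the other WT mice and 4, 2 and 1 in Jmjd8-KO. Npy, neuropeptide Y, had 86, 9 and 13 counts in WT and 2, 6 and 9 in Jmjd8-KO, so that its groups overlapped in CPM even without that mouse. Vip, found with Cck in some neurons of the cortex, had 15 counts there and 1 in each other mouse. In WT replicates 2 and 3, Cck stood at 176 and 209 counts.

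**Figure D5:**
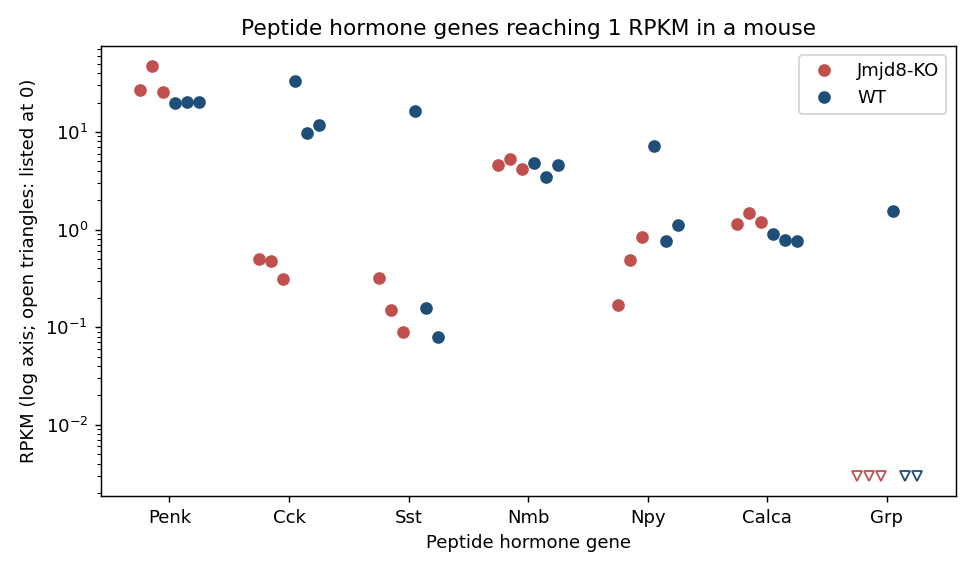
Deposited RPKM per mouse, on a log axis, of Cck and the other peptide hormone genes that reach 1 RPKM in any mouse, Jmjd8-KO in red and WT in blue, each group in replicate order. Sst and Grp are high in WT replicate 1 alone, while Cck is high in all 3 WT mice (9.75 to 33.3 RPKM) and low in all Jmjd8-KO mice (0.309 to 0.502 RPKM); open triangles at an arbitrary height are listed at 0.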

How the data were processed

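RNA from eWAT of 3 Jmjd8-KO and 3 WT mice was sequenced on a BGISEQ machine, per the labels' protocols. The authors deposited raw counts and RPKM per gene and mouse, per the file headers. STAR, featureCounts and mm10 are named in the submitters' processing notes; versions, annotation, multi-mapping and strand settings are not stated in the sources used here. Groups and replicate numbers come from the sample titles.

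Counts were filtered with filterByExpr (minimum count 10), given TMM factors, and analysed in edgeR 4.0.16 (glmQLFit, glmQLFTest) in R 4.3.3 with genotype as the only term. Adjusted p-values (Benjamini-Hochberg) cover all genes tested, at a threshold of 0.05. SEs are the absolute log2 ratio divided by the root of the F statistic. The procedure was tested on simulated data. Log2 CPM used a prior count of 2. DESeq2 1.42.0 was an alternative. Total counts limit precision through the intervals given; the series' design text gives 3 mice per genotype, so samples are taken as separate mice.

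Genes were matched by symbol to GENCODE on GRCm38 for 97.3% of listed genes. Named genes were the members, Jmjd8, the 5 nearest to Cck by each of 2 measures (leaving out gene models), list members that passed or else those with the smallest p, the 2 highest per length in each list, and the 4 nearest listed genes on each side of a member; others, Th, Dbh, Pyy, Snap25, Camk2a, Syp, Crisp1, Chga, Cadps, Sst, Npy and Vip among them, were picked after their values were seen. The counts outside WT replicate 1, the neuron sum without Syp and the marker calls with 1 mouse left out were also added after seeing the data. The members and lists were chosen with earlier results of these data known. Protein sequences were not used here.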

Additional observations from a re-analysis of the deposited data

How the results depend on the processing

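Cck kept its direction under every alternative run, which its groups, far apart in these same mice, fixed in advance. Its log2 fold changes were -5.60 to -4.56 over the fits that left out 1 mouse each, the smallest in size without WT replicate 1. The deposited RPKM gave -5.18. Of the 10 genes most like Cck, 5 stayed without WT replicate 1. Calls were unstable. The 304 genes became 156 with no filter on low counts, 1039 with DESeq2, 2833 with WT replicate 1 and Jmjd8-KO replicate 2 both left out, and 0 to 1351 with 1 mouse left out (2119 at an unadjusted p under 0.05 by edgeR where the count was 0). With the replicate number as a block the count was 5, and Jmjd8 (log2 fold change -1.30, adjusted p = 0.0615), the maturation list (0 called) and the Gq list (0 called) lost their calls. Same-numbered mice did not deviate together (correlations -0.0292 to 0.00817), so the numbers are not known to pair the mice.

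With 1 mouse left out, Jmjd8 ranged from -1.47 to -1.18. Called members ranged from 0 to 2 for maturation, 0 to 3 for Gq, 0 to 2 for peptidases and 0 to 1 for other peptides. The highest of these all came from leaving out Jmjd8-KO replicate 2, where 1351 of 14468 genes passed. With both mice left out, 2 maturation, 2 granule, 5 Gq, 2 peptidase and 1 other peptide genes passed, among 2833 of 14287 genes. DESeq2 called 3 Gq, 1 peptidase and 1 other peptide gene, against 1039 of 14322 genes. With no filter the Gq list had 0, against 156 of 19120 genes. The cause was not tested. Depth limits the receptors, at 17 counts or fewer, and Cck in Jmjd8-KO, at 9 or fewer.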
